A study of Mus musculus with 17 samples.

Results

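Calcineurin is a phosphatase switched on by calcium and calmodulin, and the NFAT transcription factors are its best known substrates in heart muscle. Here 10 mouse genes of this pathway were followed, chosen by gene symbol with earlier results of these data known. They were the catalytic subunits Ppp3ca and Ppp3cb, the regulatory subunit Ppp3r1, and the inhibitors Rcan1, Rcan2 and Cabin1. The others were the transcription factors Nfatc1, Nfatc2, Nfatc3 and Nfatc4. All 10 were among the 21798 genes in the deposited table and among the 16218 genes tested. In counts per 1 M reads after pressure overload, Rcan1 was 3.24-fold higher than in Sham hearts (the mean of both treatments, n = 9 TAC and 8 Sham). Nfatc4 was 1.91-fold and Cabin1 1.77-fold higher, and the 3 calcineurin subunit genes lay between 0.988 and 1.03 times their Sham level. On that scale the median of all genes tested also rose, by 0.36 in log2 units. With another scaling Ppp3cb and Ppp3r1 were lower. For Rcan1, Nfatc4 and Cabin1 the log2 changes were then 1.35, 0.59 and 0.48, in place of 1.69, 0.93 and 0.82. No gene of the 10 passed the adjusted threshold for 29P against vehicle.

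PolyA RNA from the apex of the left ventricle had been sequenced, and the 17 libraries used here came from male C57Bl6/J mice that were 7 to 8 weeks old at surgery. Transverse aortic constriction (TAC), a ligature that narrows the aortic arch and loads the left ventricle with pressure, was compared with Sham surgery. From 1 week after surgery, mice of both kinds received by gavage 6 doses over 2 weeks of either saline vehicle (Veh) or 50 μg/kg 29P, a peptide prodrug that acts on αvβ3 integrin, and hearts were taken 3 weeks after surgery. There were 5 libraries from Sham Veh and 3 from Sham 29P mice, and 3 from TAC Veh and 6 from TAC 29P mice. No transgene or deletion was carried by any group, and the shared features of all mice were the strain, the sex, the surgery other than the constriction, and the gavage. The study made 20 libraries and removed 3 of them, 2 for few reads and 1 TAC Veh library because it lay among Sham libraries, so the TAC Veh group was in part selected by its expression. The estimated depth was 14.2 to 23.8 M reads a library (median 20.4 M), and expression is given as CPM, counts per 1 M reads.

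In resting heart muscle cells, NFAT proteins are phosphorylated and held in the cytoplasm. Calcineurin, a pair of 1 catalytic and 1 regulatory subunit bound by calcium-loaded calmodulin, removes these phosphates, and NFAT then enters the nucleus and acts with GATA4, MEF2 or AP-1 on target genes. Active calcineurin is known to drive growth of the heart, and Rcan1 is known both as a binding protein that restrains calcineurin and as an NFAT target gene, whose short transcript starts at an internal promoter rich in NFAT sites.

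The promoters of the 2 RefSeq starts of Rcan1 are shown because Rcan1 moved furthest of the 10 genes and because one of them is the NFAT-dependent promoter of that background. GENCODE vM21 lists 7 Rcan1 transcripts, some with other starts that are not shown. Rcan1 lies on the minus strand of chr16:92391953-92470867 (mm10, GENCODE vM21). The RefSeq starts on build GRCm38.p6 stand 66091 bases apart, and for each the 250 bases before the start are given 5′ to 3′ on the strand of the gene, chr16:92466170-92466419 for the upstream start and chr16:92400079-92400328 for the internal start. Capitals mark matches to GGAAA, the NFAT core, on this strand, to its reverse complement TTTCC, and to the AP-1 motif TGACTCA, which is searched on both strands and overlaps neither of the others here.
Rcan1 upstream start: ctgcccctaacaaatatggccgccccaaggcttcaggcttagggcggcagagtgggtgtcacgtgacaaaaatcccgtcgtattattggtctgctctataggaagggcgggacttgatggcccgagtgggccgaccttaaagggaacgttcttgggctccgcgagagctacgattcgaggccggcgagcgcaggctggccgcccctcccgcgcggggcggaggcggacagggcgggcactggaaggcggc
Rcan1 internal start: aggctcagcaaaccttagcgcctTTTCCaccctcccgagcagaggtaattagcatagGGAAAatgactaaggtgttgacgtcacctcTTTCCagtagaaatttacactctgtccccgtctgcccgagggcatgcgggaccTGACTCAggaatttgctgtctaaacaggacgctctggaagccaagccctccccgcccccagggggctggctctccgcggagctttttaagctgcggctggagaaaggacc

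The internal window held 3 NFAT core matches, whose first bases on the printed strand stood 227, 193 and 163 bases before the start, and 1 AP-1 match 110 bases before it. The upstream window held neither motif. Of 32851 RefSeq promoter windows of this length, 55.6% held at least 1 NFAT core match, 6.4% held at least 3, 4.5% held an AP-1 match, and 0.32% held at least 3 NFAT core matches together with an AP-1 match. That last criterion equals what the internal window held, so its share is no test of that window. The table held 13 windows for 8 of the 10 genes, none for Ppp3ca and Nfatc1, and 7 of the 13 (53.8%) held an NFAT core match. The windows of Ppp3cb and Nfatc4 and 1 of the 2 windows of Nfatc2 also held 3 matches, so the count alone did not set the internal Rcan1 window apart. Gene-level values do not separate transcripts from the 2 starts, and a match is a string of letters, not a shown binding site.

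Before any contrast, the libraries were compared with markers of their label. The 6 cardiomyocyte markers summed to 22110 to 37250 CPM in every library, with Myh6 as the most abundant, and none of them was at 0 in any library. A set of 3 libraries stood apart: the 6 atrial markers, led by Myl4, summed to 2696 and 2179 CPM in Sham Veh replicates 19 and 20 and to 1751 CPM in TAC 29P replicate 18, against 13.7 to 88.6 CPM in the other 14. These 3 are also all the libraries of the last run of close numbers in the library codes, so atrial tissue and that run cannot be told apart. The labels do not say what the code numbers stand for, and the grouping into runs was made here. The surgery change over both treatments is also given without these 3 libraries. The mitochondrial-encoded genes took 29.1 to 40.0% of reads in Sham and 23.6 to 29.4% in TAC libraries. On the CPM scale the median gene was 0.36 higher on the log2 scale after TAC (0.35 in Veh and 0.37 in 29P mice), and each gene is read beside that shift. With factors from a trimmed mean of log ratios (TMM) the median was 0.01.

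Levels of the 10 genes were compared per kilobase of exon, since longer transcripts collect more reads. In Sham Veh hearts Rcan2 was the highest, at 77.5 ± 7.73 CPM per kb (SD, n = 5). Rcan1 at 28.6 ± 12.02 and Ppp3r1 at 25.0 ± 1.58 CPM per kb followed, and their library values overlapped. Ppp3cb at 8.38 ± 0.557 and Ppp3ca at 7.59 ± 0.630 CPM per kb formed the next pair and overlapped as well. The transcription factors and Cabin1 were the lowest: Nfatc3 at 1.97 ± 0.376, Nfatc1 at 1.87 ± 0.433, Cabin1 at 1.21 ± 0.341, Nfatc2 at 1.03 ± 0.235 and Nfatc4 at 0.688 ± 0.243 CPM per kb, each overlapping its neighbour in this order. In TAC Veh hearts Rcan1 reached 82.2 ± 39.9 CPM per kb (SD, n = 3) and overlapped Rcan2 at 88.0 ± 3.24 CPM per kb, whereas Ppp3r1 at 27.0 ± 0.639 CPM per kb lay below every Rcan1 library. Without length, Ppp3ca and Ppp3cb would change places in Sham Veh, as would Nfatc1 and Cabin1.

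**Figure D1:**
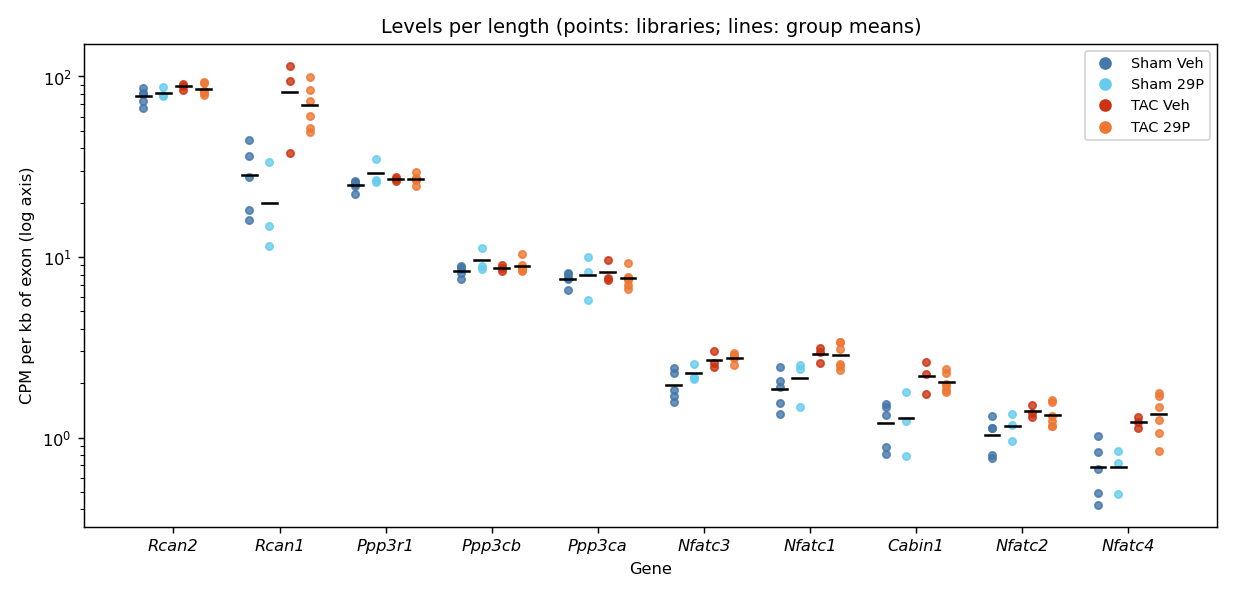
Level of each gene in CPM per kb of exon on a log axis, with a point for each library and a line for each group mean, and genes ordered by their Sham Veh mean. Rcan1 moves from 28.6 CPM per kb in Sham Veh to 82.2 in TAC Veh, beside Rcan2, while the subunit genes stay near their Sham values.

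The surgery comparison asks what pressure overload did to each gene. Of the 10 genes, 5 rose in TAC Veh against Sham Veh (adjusted p of 0.05 or less over all genes tested, limma), where 22.5% of all genes rose and 1.91% fell. In TAC 29P against Sham 29P, 3 rose, where 31.4% of all genes rose and 1.12% fell. Over the mean of both treatments 6 rose, where 49.4% of all genes rose and 3.08% fell, and none of the 10 fell in any of these. Groups did not overlap for 5 genes in TAC Veh (27.6% of all genes lay above without overlap) and 3 in TAC 29P (25.0%). Whether these shares differ from those of all genes was not tested. In Veh mice none of the 10 was called with TMM factors, where 3.86% of all genes rose. The same held without TAC Veh replicate 2, where 2.60% rose. The median of the 10 (0.46, 0.25 and 0.36 on the log2 scale) stood beside 0.35, 0.37 and 0.36 for all genes. The 3 tests share libraries and are not independent. In bulk tissue, fewer cells of a type and less RNA per cell cannot be told apart.

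The calcineurin subunits moved little. Ppp3ca, the alpha catalytic subunit (chr3:136670124-136937727), measured 65.5, 81.0, 75.1, 80.7 and 76.4 CPM in Sham Veh and 74.0, 76.3 and 96.5 CPM in TAC Veh libraries. It measured 57.8, 99.3 and 81.9 CPM in Sham 29P and 66.6 to 91.9 CPM (median 75.6) in TAC 29P libraries. All groups overlapped, and the Sham 29P libraries spread the widest. The log2 fold change after TAC was 0.04 (95% interval −0.18 to 0.26, limma adjusted p = 0.771) over the mean of both treatments.

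Ppp3cb, the beta catalytic subunit (chr14:20499364-20546573), lay between 66.3 and 78.1 CPM in Sham Veh and at 74.0, 79.4 and 76.9 CPM in TAC Veh. Its log2 fold change was −0.02 (95% interval −0.17 to 0.13, limma adjusted p = 0.846). Ppp3r1, the calcium-binding regulatory subunit (chr11:17159263-17200375), lay between 72.5 and 85.2 CPM in Sham Veh and at 86.9, 85.3 and 89.4 CPM in TAC Veh. Every TAC Veh library of Ppp3r1 was above every Sham Veh library, by a small step. In 29P mice the order was lost, with 84.1, 113 and 86.5 CPM in Sham 29P against 79.7 to 95.5 CPM in TAC 29P. The log2 fold change over both treatments was 0.01 (95% interval −0.14 to 0.15, limma adjusted p = 0.945). In the annotation Wdr92, on the same strand, overlaps the Ppp3r1 span, and how shared reads were counted is not given in the sources used here.

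The subunit values depended on what they were scaled to. Beside the shift of 0.36 in the median gene, the subunits lay 0.32 (Ppp3ca), 0.38 (Ppp3cb) and 0.35 (Ppp3r1) below it on the log2 scale. With TMM factors Ppp3cb fell by 0.36 (limma adjusted p = 0.00493) and Ppp3r1 fell by 0.34 (limma adjusted p = 0.00950), while Ppp3ca was at −0.31 (limma adjusted p = 0.0937). The direction of the subunits thus differed between scales, flat in CPM and lower relative to the median gene.

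Rcan1 had the largest change of the 10 genes after TAC. It measured 138, 56.5, 49.4, 111 and 85.7 CPM in Sham Veh libraries and 353, 116 and 292 CPM in TAC Veh libraries. It measured 104, 35.5 and 46.0 CPM in Sham 29P and 152, 305, 186, 259, 159 and 224 CPM in TAC 29P libraries. Of 9 TAC libraries 8 lay above every Sham library, the exception being TAC Veh replicate 12, and of 8 Sham libraries 7 lay below every TAC library. The TAC Veh and Sham Veh ranges overlapped through that replicate and Sham Veh replicate 5, and the 29P groups did not overlap.

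The log2 fold change of Rcan1 was 1.48 in Veh mice (standard error 0.40, 95% interval 0.64 to 2.33, limma adjusted p = 0.0170, exact permutation p = 0.0536). It was 1.91 in 29P mice (standard error 0.39, 95% interval 1.09 to 2.73, limma adjusted p = 0.00410), and the permutation p was 0.0119 (exact, the lowest value that 84 divisions can give). Over both treatments it was 1.69 (standard error 0.28, limma adjusted p = 0.000250), with an exact permutation p of 0.000425 when libraries were shuffled within each treatment. Rcan1 lay 1.34 above the median gene on the log2 scale and stayed higher with TMM factors, at 1.35 (limma adjusted p = 0.00108). Without the 3 libraries with atrial transcripts it was 1.77 (limma adjusted p = 0.00118). In Veh mice alone the call was lost with TMM factors (1.14, limma adjusted p = 0.0555), without TAC Veh replicate 2 (1.17) and without TAC Veh replicate 16 (1.31), so the call in Veh mice rested on single libraries.

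Within runs of code numbers, Rcan1 was higher in TAC than in Sham by 1.27 on the log2 scale in the first run (6 TAC and 3 Sham libraries), 1.47 in the second, 2.67 in the third and 1.20 in the fourth. The later runs held 3, 2 and 3 libraries and allow no test of their own. The third run held only TAC Veh and Sham 29P libraries, and the fourth only TAC 29P and Sham Veh libraries. In both, surgery and treatment therefore differ together, and the first and second runs mix the treatments unequally. With the run as a covariate the change over both treatments was 1.57 (limma adjusted p = 0.000118).

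**Figure D2:**
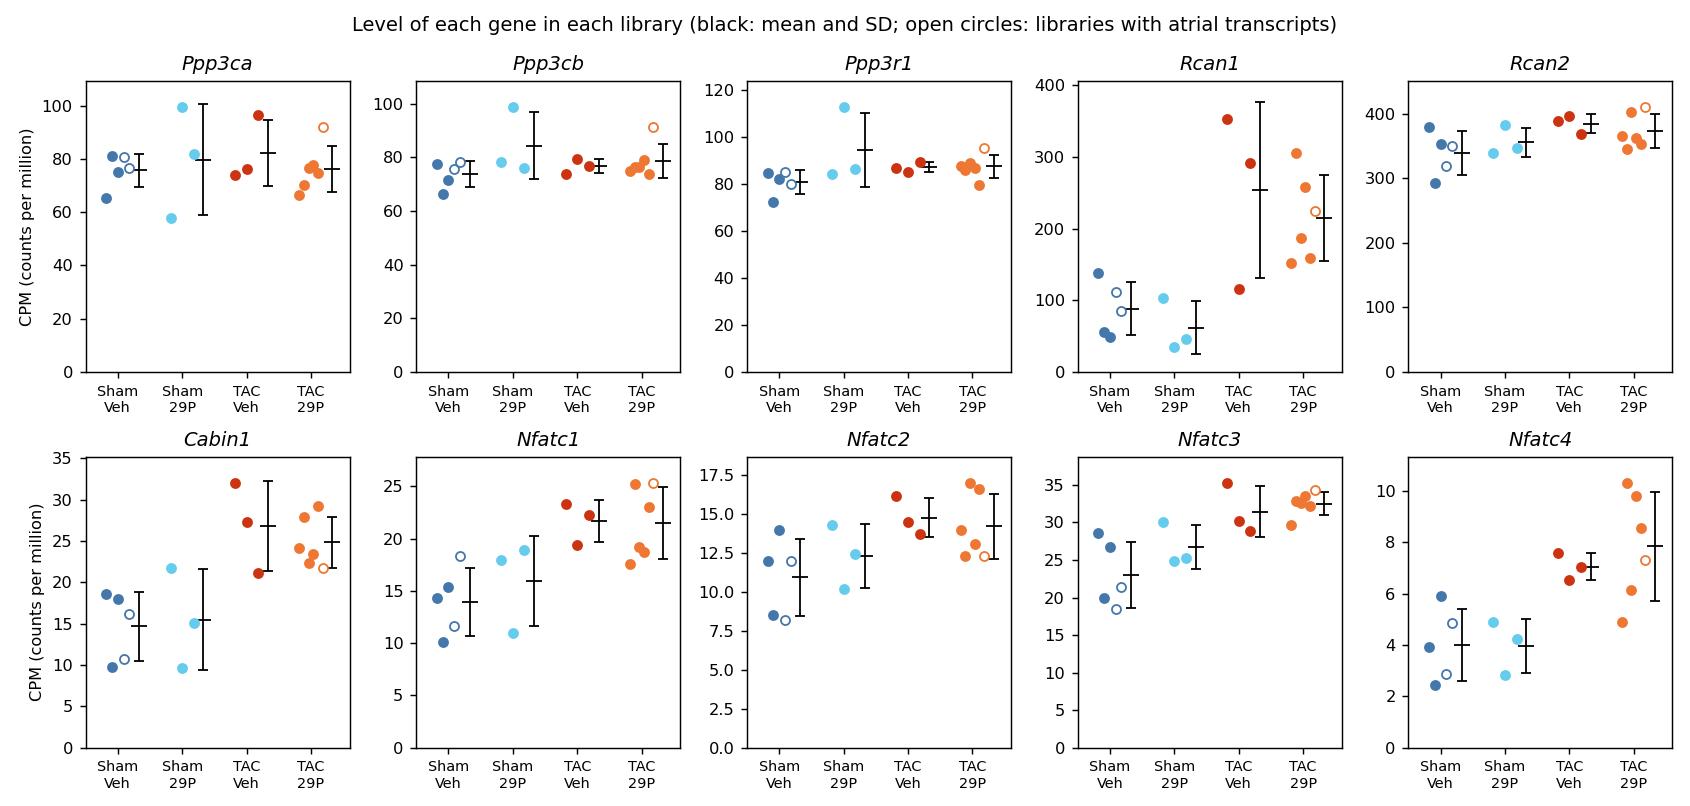
CPM of each gene in each library by group, on axes that start at 0, with the mean and SD in black and open circles for the 3 libraries with atrial transcripts. Rcan1 spans 35.5 to 138 CPM in Sham and 116 to 353 CPM in TAC libraries, Cabin1 and Nfatc4 step up in TAC, and the 3 subunit genes show TAC and Sham values close together, overlapping except for Ppp3r1 in Veh mice.

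Rcan2, the paralogue of Rcan1 and in Sham hearts the most abundant of the 10 per kb (chr17:43801351-44039516), did not share that rise. It measured 380, 293, 354, 319 and 350 CPM in Sham Veh and 388, 397 and 369 CPM in TAC Veh libraries. The TAC Veh libraries sat at the upper end of the Sham Veh range and overlapped it. Its log2 fold change over both treatments was 0.13 (95% interval −0.01 to 0.27, limma adjusted p = 0.111, exact permutation p = 0.0436). That is 0.23 below the median gene, and with TMM factors Rcan2 fell by 0.22 (limma adjusted p = 0.0362).

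Cabin1, a large nuclear protein that binds calcineurin and represses MEF2 (chr10:75646112-75764341), rose in both treatments on the CPM scale. It measured 18.6, 9.80, 18.01, 10.7 and 16.2 CPM in Sham Veh and 32.0, 27.2 and 21.2 CPM in TAC Veh libraries. It measured 21.8, 9.66 and 15.1 CPM in Sham 29P and 21.8 to 29.3 CPM (median 23.8) in TAC 29P libraries. TAC and Sham did not overlap within Veh mice, and within 29P mice the lowest TAC library exceeded the highest Sham library only beyond the digits shown, both at 21.8 CPM. The log2 fold change was 0.90 in Veh (standard error 0.25, limma adjusted p = 0.0178) and 0.75 in 29P mice (standard error 0.24, limma adjusted p = 0.0275). Over both treatments it was 0.82 (limma adjusted p = 0.00120, with a permutation p of 0.000213, exact and the lowest possible), and it stayed higher with TMM factors (0.48, limma adjusted p = 0.0131) and without the libraries with atrial transcripts (0.81, limma adjusted p = 0.00444). Within single treatments the Cabin1 calls were lost with TMM factors (0.56, limma adjusted p = 0.0690 in Veh and 0.39, limma adjusted p = 0.166 in 29P mice). In Veh mice the call was also lost without the libraries with atrial transcripts, with a change of similar size (0.83, limma adjusted p = 0.0600). In 29P mice it was lost with the run as a covariate (0.59, limma adjusted p = 0.182), without Sham 29P replicate 14 (0.45, limma adjusted p = 0.226), and at changes of 0.70 to 0.77 without Sham 29P replicate 15, TAC 29P replicate 3 or TAC 29P replicate 11.

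Among the transcription factors, Nfatc4 had the largest change after TAC and the lowest Sham level per kb. Nfatc4 (chr14:55823144-55833943) measured 3.91, 2.46, 5.89, 2.86 and 4.85 CPM in Sham Veh and 7.58, 6.55 and 7.04 CPM in TAC Veh libraries. It measured 4.89, 2.82 and 4.22 CPM in Sham 29P and 4.92 to 10.3 CPM (median 7.94) in TAC 29P libraries. TAC and Sham did not overlap within either treatment. The log2 fold change was 0.89 in Veh (standard error 0.29, limma adjusted p = 0.0330) and 0.97 in 29P mice (standard error 0.28, limma adjusted p = 0.0181), with exact permutation p of 0.0536 and 0.0238. The Veh call passed in 12 of 17 fits that left out 1 library, and was lost without Sham Veh replicate 6 or 19 or any of the 3 TAC Veh libraries. Over both treatments it was 0.93 (limma adjusted p = 0.00145), 0.57 above the median gene, and it stayed higher with TMM factors (0.59, limma adjusted p = 0.0139). Within single treatments the Nfatc4 calls were lost with TMM factors (0.56, limma adjusted p = 0.142 in Veh and 0.61, limma adjusted p = 0.0878 in 29P mice). They were also lost, at changes close to those above, with the run as a covariate (0.83, limma adjusted p = 0.104 in Veh and 1.04, limma adjusted p = 0.0875 in 29P mice, where 19.2% and 4.19% of all genes rose) and in Veh mice without the libraries with atrial transcripts (0.87, limma adjusted p = 0.0817). The lowest CPM of Nfatc4, in Sham Veh replicate 6, stood for an estimated 55 reads. Its fewest estimated reads were 40, in Sham 29P replicate 14.

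Nfatc1, on chromosome 18, measured 14.3, 10.1, 15.4, 11.6 and 18.4 CPM in Sham Veh and 23.4, 19.4 and 22.2 CPM in TAC Veh libraries, without overlap. It rose by 0.66 in Veh mice on the log2 scale (limma adjusted p = 0.0280). This call passed in 13 of 17 fits that left out 1 library and was lost with TMM factors (0.32, limma adjusted p = 0.194). In 29P mice the change of Nfatc1 was 0.46 (limma adjusted p = 0.0819), with 17.99, 11 and 18.9 CPM in Sham 29P against 17.6 to 25.3 CPM in TAC 29P. That change ran from 0.21 to 0.60 when 1 library was left out and was 0.099 with TMM factors (limma adjusted p = 0.693). Nfatc3 (chr8:106058840-106130537) measured 28.6, 20, 26.7, 18.5 and 21.4 CPM in Sham Veh and 35.2, 30.2 and 28.8 CPM in TAC Veh libraries, also without overlap. It rose by 0.46 in Veh mice (limma adjusted p = 0.0236) and was at 0.29 in 29P mice (limma adjusted p = 0.0969). The Nfatc3 call in Veh mice was lost with the run as a covariate at the same change (0.46, limma adjusted p = 0.0519), and without the libraries with atrial transcripts (0.33, limma adjusted p = 0.110). Esrp2, on the opposite strand, overlaps the Nfatc3 span. Although the library kit marks strand, whether the counting used it is not given in the sources used here, so reads shared there are uncertain.

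Nfatc2 (chr2:168476410-168601657) measured 11.99, 8.50, 13.9, 8.18 and 11.99 CPM in Sham Veh and 16.1, 14.5 and 13.7 CPM in TAC Veh libraries, with an overlap at 13.7 to 13.9 CPM. Its log2 fold change was 0.46 in Veh (limma adjusted p = 0.0678) and 0.21 in 29P mice (limma adjusted p = 0.365), and over both treatments it rose by 0.34 (limma adjusted p = 0.0342). That Nfatc2 call was lost at changes close to it with the run as a covariate (0.31, limma adjusted p = 0.0640) and without the libraries with atrial transcripts (0.32, limma adjusted p = 0.0553), and it passed in 9 of 17 fits that left out 1 library. Of these 3 factors none stood apart from the median gene: the distance from it over both treatments was 0.20 for Nfatc1, 0.02 for Nfatc3 and −0.02 for Nfatc2. With TMM factors Nfatc1 was at 0.21 (limma adjusted p = 0.15), Nfatc3 at 0.03 (limma adjusted p = 0.793) and Nfatc2 at −0.01 (limma adjusted p = 0.950), and none of the 3 was called.

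**Figure D3:**
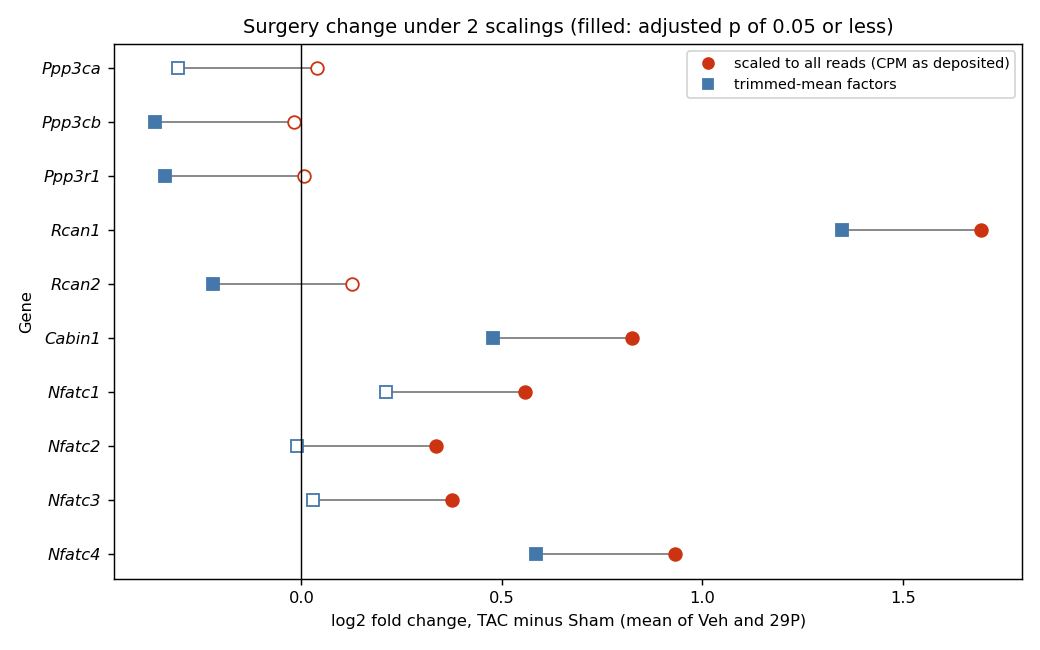
Log2 fold change of each gene after TAC (mean of Veh and 29P) on the CPM scale (circles) and with TMM factors (squares), filled where the adjusted p is 0.05 or less. Rcan1, Nfatc4 and Cabin1 are filled and to the right of 0 on both scales, Ppp3cb, Ppp3r1 and Rcan2 are filled to the left of 0 with TMM factors only, and Nfatc1, Nfatc2 and Nfatc3 are filled on the CPM scale only.

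Over both treatments the 6 higher and 0 lower calls on the CPM scale thus became 3 higher and 3 lower with TMM factors, where 13.5% of all genes rose and 13.5% fell. Rcan1, Cabin1 and Nfatc4 were the 3 genes called higher on both scales. In 29P mice the 3 higher calls became 1 higher, Rcan1 (1.55, limma adjusted p = 0.0125), and 2 lower, Ppp3cb (−0.45, limma adjusted p = 0.0247) and Ppp3r1 (−0.45, limma adjusted p = 0.0274), where 5.70% of all genes rose and 4.96% fell. In Veh mice alone no gene of the 10 was called with TMM factors, where 3.86% of all genes rose and 5.78% fell. None was called in Veh mice on the CPM scale without TAC Veh replicate 2 either, where 2.60% of all genes rose, and that is the TAC Veh library with the highest Rcan1, Cabin1, Nfatc1, Nfatc2, Nfatc3 and Nfatc4. Without Sham Veh replicate 6, Sham Veh replicate 19 or TAC Veh replicate 16, 2 were called in Veh mice, where 13.8%, 14.8% and 12.8% of all genes rose. In 29P mice, 1 was called without Sham 29P replicate 14, where 6.41% of all genes rose. This library was lowest in Rcan1 and Cabin1 and highest in the 3 subunits among all 17, and it also had the lowest depth (14.2 M reads), the most genes at 0 (3549) and the highest mitochondrial share (40.0%), whose part in these values was not tested. Without the 3 libraries with atrial transcripts the calls were 2 in Veh mice, 3 in 29P mice and 5 over both treatments, where 13.4%, 30.2% and 46.1% of all genes rose. Over both treatments Nfatc1 was then at 0.57 (limma adjusted p = 0.00690), Nfatc3 at 0.30 (limma adjusted p = 0.0178), Rcan2 at 0.11, Ppp3ca at 0.03, Ppp3cb at −0.02 and Ppp3r1 at 0.00, of which Nfatc1 and Nfatc3 were called, and for 29P against vehicle none of the 10 was called within TAC or within Sham.

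Cell type markers moved with surgery as well, and their part in these results was not tested. Their counts stand beside 49.4% of all genes that rose on the CPM scale and 13.5% with TMM factors. The 6 fibroblast markers, led by Dcn, all rose over both treatments and summed to 833.4, 816, 937, 1247 and 1230 CPM in Sham Veh, 917, 684 and 730 CPM in Sham 29P, 2497, 1686 and 2155 CPM in TAC Veh and 1162 to 2506 CPM in TAC 29P. The 6 endothelial markers, led by Cdh5, all rose and summed to 556 to 941 CPM in Sham Veh, 869, 472 and 632 CPM in Sham 29P, 1184, 920 and 1027 CPM in TAC Veh and 804 to 1173 CPM in TAC 29P. Of 6 macrophage markers, led by Lyz2, 5 rose, with sums of 262 to 297 CPM in Sham Veh, 333, 187 and 198 CPM in Sham 29P, 568.3, 378 and 468 CPM in TAC Veh and 373 to 463 CPM in TAC 29P. No marker of these 3 lists was at 0 in any library, and the 6 cardiomyocyte markers split into 1 higher, 1 lower and 4 not called. These counts too follow the scale: with TMM factors 3 of 6 fibroblast, 1 of 6 endothelial and 4 of 6 macrophage markers rose, and 4 of 6 cardiomyocyte markers fell. Sham 29P replicate 14, low in Rcan1, was also the lowest in the fibroblast, endothelial and macrophage sums.

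The remaining marker lists are given on the CPM scale first. Of 6 smooth muscle and pericyte markers, led by Rgs5, 4 rose, with sums of 1077 ± 137 CPM in Sham Veh and 1442 ± 231 CPM in TAC Veh. The 5 red blood cell markers, led by Hbb-bs, all rose over both treatments. By treatment all 5 rose in Veh mice (1613 ± 636 CPM in Sham Veh and 3800 ± 1039 CPM in TAC Veh), where 22.5% of all genes rose. In 29P mice 0 of 5 passed (1245 ± 599 CPM in Sham 29P and 1956 ± 1152 CPM in TAC 29P), where 31.4% of all genes rose. The difference of the surgery change, 29P minus Veh, was −0.96 to −0.63 on the log2 scale and was called for none of the 5. All 4 B cell markers rose, at a sum of 2.91 ± 1.58 CPM in Sham Veh and 6.48 ± 2.56 CPM in TAC Veh. Of the T cell list 2 of 3 tested markers rose and of the neutrophil list 1 of 3, and sums stayed at or below 4.69 and 18.9 CPM in any library, with 5 of 6 and 2 of 4 markers at 0 in some libraries. Of 2 Schwann cell markers tested 1 fell, and none of 2 adipocyte or 5 atrial markers tested was called. With TMM factors 1 of 6 smooth muscle and pericyte, 1 of 5 red blood cell, 3 of 4 B cell, 1 of 3 T cell and 1 of 3 neutrophil markers rose, and 1 of 2 Schwann cell markers fell. Without the 3 libraries with atrial transcripts 2 of 5 atrial and 1 of 3 T cell markers rose, 1 cardiomyocyte marker rose and 2 fell, and the counts of the other lists on the CPM scale stayed as given.

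Other genes of the pathway were taken from 6 lists by role, 62 genes in all, of which 60 were tested. Over both treatments 40 rose, 1 fell and 19 did not pass. Of all genes tested 49.4% rose and 3.08% fell. These counts again follow the scale: with TMM factors 10 rose and 6 fell, beside 13.5% and 13.5% of all genes. Without the 3 libraries with atrial transcripts 38 rose and 1 fell, with 8 in place of 9 genes of calcium entry and release and 7 in place of 8 of NFAT kinases and export, and the other lists kept their counts. Ppp3r2 was not analysed here and Myoz3 was too low to test.

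Of the other subunits and family members all 5 tested genes rose on the CPM scale and none with TMM factors. Nfat5, the calcineurin-independent member of the family, rose by 0.46 on the log2 scale (limma adjusted p = 0.00173). The inhibitor Rcan3 rose by 0.64 (limma adjusted p = 0.00302), the catalytic subunit Ppp3cc by 0.26 (limma adjusted p = 0.00502) and the calcineurin-like Chp2 by 1.02 (limma adjusted p = 0.00633). For Chp2 the value was 0.31 in Veh (limma adjusted p = 0.567) and 1.74 in 29P mice (limma adjusted p = 0.00624). Its mean was 1.66 CPM in Sham Veh and 2.06 CPM in TAC Veh, and 1.04 CPM in Sham 29P and 2.86 CPM in TAC 29P. The difference of the 2 changes, 29P minus Veh, was 1.42 (95% interval 0.25 to 2.60, limma adjusted p = 0.998) and was not called. Rcan3 went from 10.2 CPM in Sham Veh to 15.9 CPM in TAC Veh.

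Of 14 calmodulin genes, anchors and other calcineurin-binding proteins tested, 11 rose on the CPM scale and 2 with TMM factors. Fkbp1a, the small immunophilin FKBP12, rose by 0.48 (limma adjusted p = 0.000158). Csrp3, the Z-disc protein MLP, rose by 0.62 (limma adjusted p = 0.000198), from 1133 to 1628 CPM in Veh mice. The plasma membrane calcium pump Atp2b4 rose by 0.57 (limma adjusted p = 0.000954), and Cib1, a calcium-binding protein that anchors calcineurin at the sarcolemma, rose by 0.78 (limma adjusted p = 0.00125). Csrp3 and Cib1 were also higher with TMM factors (0.28 and 0.44, limma adjusted p = 0.0281 and 0.0243). The anchors Akap6 at 0.07 (limma adjusted p = 0.618) and Akap1 at 0.19 (limma adjusted p = 0.30) did not pass.

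Of 14 genes of calcium entry and release, 9 rose on the CPM scale and 3 with TMM factors. The store sensors Stim2 and Stim1 rose by 0.65 (limma adjusted p = 0.000290) and 0.51 (limma adjusted p = 0.00139), and the inositol trisphosphate receptor Itpr2 by 0.57 (limma adjusted p = 0.00109). Of these 3, Stim2 was also higher with TMM factors (0.30, limma adjusted p = 0.0427). Cacna1c, the pore of the cardiac L-type channel, was at 0.07 (limma adjusted p = 0.673), and the channel Orai3 at 0.20 (limma adjusted p = 0.259).

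Of 13 genes of NFAT kinases and export, 8 rose on the CPM scale, and 1 rose and 3 fell with TMM factors. Homer3 and Homer2, scaffolds that bind NFAT in competition with calcineurin, rose by 1.06 (limma adjusted p = 0.000136) and 0.60 (limma adjusted p = 0.000591). Homer3 went from 6.19 CPM in Sham Veh to 12.8 ± 1.96 CPM in TAC Veh (SD, n = 3) and was higher with TMM factors too (0.72, limma adjusted p = 0.000624). The NFAT kinases Gsk3b and Gsk3a rose by 0.30 (limma adjusted p = 0.00298) and 0.36 (limma adjusted p = 0.0111), near the shift of the median gene. The exportin Xpo1 at 0.21 (limma adjusted p = 0.0878) and the kinase Mapk14 at 0.03 (limma adjusted p = 0.840) did not pass. With TMM factors Mapk14 fell by 0.32 (limma adjusted p = 0.0124).

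Of 8 transcriptional partners, 3 rose on the CPM scale, and none rose and 1 fell with TMM factors. The partner Gata4 rose by 0.56 (limma adjusted p = 0.00566), the coactivator Ep300 by 0.33 (limma adjusted p = 0.0100) and Mef2d by 0.38 (limma adjusted p = 0.0293), of which none was called with TMM factors. Mef2a at −0.06 (limma adjusted p = 0.542) and Mef2c at 0.29 (limma adjusted p = 0.0697) did not pass, and Mef2a fell by 0.41 with TMM factors (limma adjusted p = 0.00505).

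The hypertrophy list is the usual readout of pressure overload in the ventricle. Myh7, the slow myosin heavy chain, rose by 3.82 on the log2 scale (limma adjusted p = 8.92e-08), Acta1, skeletal actin, by 3.74, the natriuretic peptides Nppb by 2.07 and Nppa by 2.88. Of 6 genes 4 rose and 1, the calcium pump Atp2a2, fell by 0.37. Myh6 was at −0.14 (limma adjusted p = 0.439) and fell by 0.49 with TMM factors (limma adjusted p = 0.0301), where the same 4 genes rose and Atp2a2 fell by 0.72. Nppa is also an atrial gene, at 3670 and 3101 CPM in Sham Veh replicates 19 and 20 against 187 to 304 CPM in the other Sham Veh libraries, and without the 3 libraries with atrial transcripts it rose by 3.59.

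The second question was whether 29P changed the pathway. Within TAC, none of the 10 genes was called by adjusted p (0% of all genes were), and none had an unadjusted limma p of 0.05 or less, where 1.98% of all genes did. Over the 10 genes the unadjusted limma p ran from 0.469 to 0.981, and the exact permutation p was 0.440 or higher. Rcan1 averaged 253.5 ± 123 CPM in TAC Veh (SD, n = 3) and 214 ± 59.9 CPM in TAC 29P (SD, n = 6), and all 6 TAC 29P values fell between the lowest and highest TAC Veh values. The log2 fold change was −0.14 with a 95% interval of −0.96 to 0.68, so changes of these sizes in either direction could not be told from none. The Rcan1 value was −0.63 without TAC Veh replicate 12 and 0.17 without TAC Veh replicate 2. With the run as a covariate in the limma fit across all genes it was −0.76, with a p below the threshold of 0.05 before adjustment and not after it (limma adjusted p = 0.9999), the only one of the 10 genes to do so in any alternative. Only TAC Veh replicate 2, at 353 CPM, shared a run with TAC 29P libraries, 5 of them with a mean of 212 CPM. The run-adjusted value thus leans on that 1 TAC Veh library.

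The other intervals were narrower. For Ppp3cb, Ppp3r1 and Rcan2 the change with 29P within TAC was 0.03, 0.00 and −0.05, with 95% intervals of −0.17 to 0.24, −0.20 to 0.21 and −0.24 to 0.15. For Cabin1 it was −0.10 (−0.60 to 0.40) and for Nfatc4 0.11 (−0.48 to 0.69). Ppp3ca and the other 3 NFAT genes lay between −0.11 and 0.05.

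Within Sham, none of the 10 was called by adjusted p (0.00617% of all genes were) and 1 had an unadjusted limma p of 0.05 or less, where 7.49% of all genes did. That gene was Ppp3r1, at 0.21 (95% interval 0.00 to 0.42, limma p = 0.0463, limma adjusted p = 0.665, exact permutation p = 0.0536). It rested on Sham 29P replicate 14, the library of the lowest depth and highest mitochondrial share, at 113 CPM, with the other 2 libraries at 84.1 and 86.5 CPM near the top of the Sham Veh range. Rcan1 was at −0.56 (95% interval −1.41 to 0.28, limma adjusted p = 0.756) within Sham, −1.02 without Sham 29P replicate 4 and −0.24 without Sham 29P replicate 14.

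The surgery change itself was compared between treatments. The difference of the log2 fold changes, 29P minus Veh, was not called for any of the 10 by adjusted p (0.00617% of all genes were) and none had an unadjusted limma p of 0.05 or less (2.84% of all genes did). It was 0.43 for Rcan1 (95% interval −0.75 to 1.60) and between −0.26 and 0.08 for the other 9. For Rcan1 it turned to −0.58 with the run as a covariate, and it ran from −0.06 without TAC Veh replicate 12 to 0.88 without Sham 29P replicate 4. Nfatc1 and Nfatc3 passed in Veh mice and not in 29P mice, but their differences were −0.21 (95% interval −0.80 to 0.39) and −0.17 (95% interval −0.57 to 0.22), and neither was shown to differ.

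**Figure D4:**
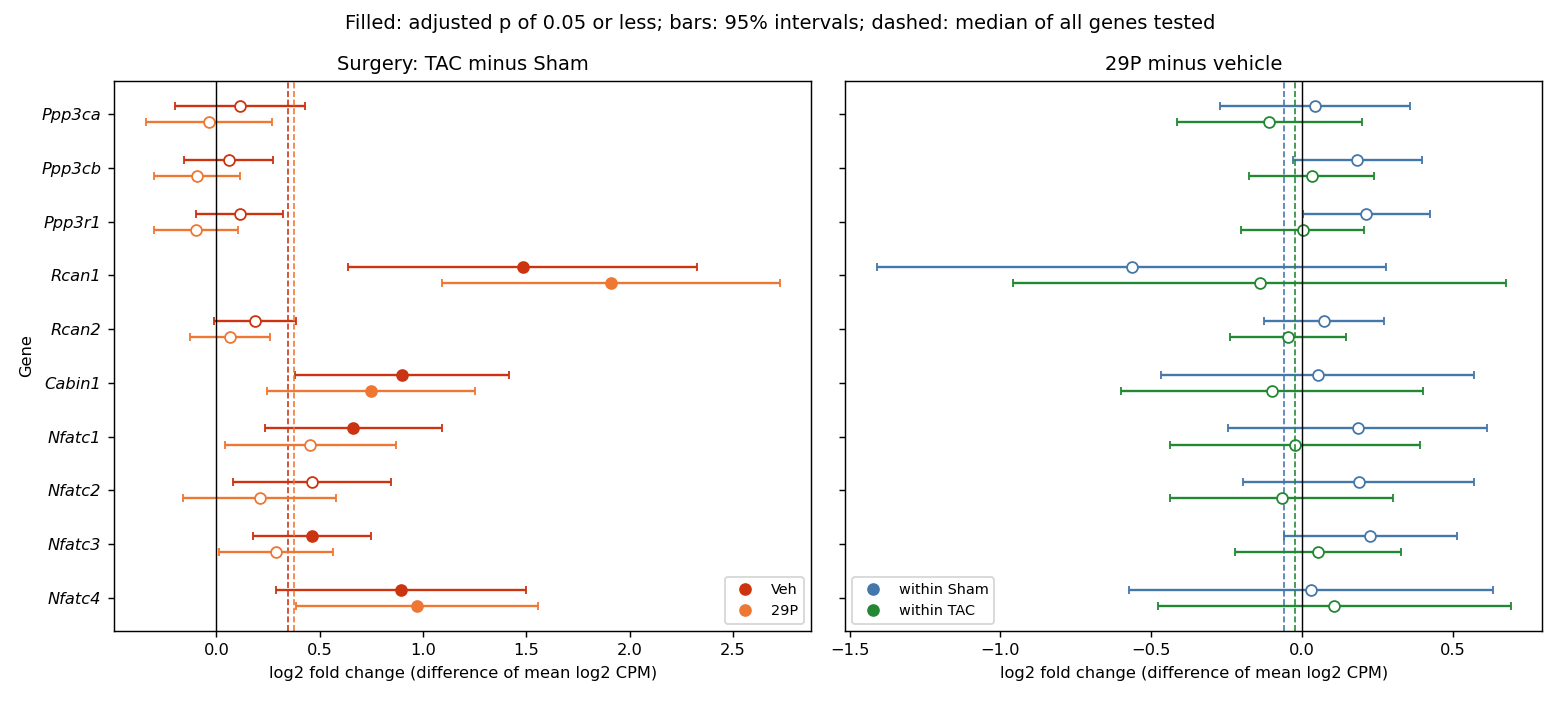
Log2 fold change with its 95% interval for each gene, for TAC minus Sham in Veh and 29P mice (left) and for 29P minus vehicle within Sham and within TAC (right), with filled points where the adjusted p is 0.05 or less and dashed lines at the median of all genes tested. The Rcan1 intervals after TAC lie wholly to the right of both medians, the subunit intervals after TAC include 0, and no point is filled in the right panel, where the Ppp3r1 interval within Sham lies just above 0.

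Variation among hearts of 1 group showed which of the genes moved together. After group means were subtracted, the 3 subunit genes correlated positively over the 17 libraries (Pearson r of log2 CPM 0.506 to 0.865 in 3 pairs), with Ppp3cb and Ppp3r1 the closest pair. Rcan2 went with Ppp3cb (0.674) and Ppp3r1 (0.641) more than Ppp3ca did, and less with Ppp3ca (0.119). Cabin1 and the 4 NFAT genes also correlated with each other (0.45 to 0.783 in 10 pairs). Between these blocks the 15 values ran from −0.801, for Ppp3ca and Cabin1, to 0.034. With TMM factors the subunit genes stayed positive (0.804 to 0.936), as did Rcan2 with them (0.643 to 0.839), and the pair Ppp3ca and Cabin1 stayed negative (−0.918), while the values among Cabin1 and the NFAT genes spread from −0.221 to 0.604. All points share a library, its depth and its scaling, and the block of Cabin1 and NFAT genes depended on the scaling. Single libraries were also extreme. Sham 29P replicate 14 was the highest of the 17 in Ppp3ca, Ppp3cb and Ppp3r1 (99.3, 98.6 and 113 CPM). It was the lowest in Cabin1 (9.66 CPM). Sham 29P replicate 4 was the lowest in Ppp3ca (57.8 CPM) and the highest Sham library in Cabin1 (21.8 CPM). The part of these libraries in the correlations was not tested. Rcan1 followed no other of the 10 closely within groups (−0.364 to 0.397).

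**Figure D5:**
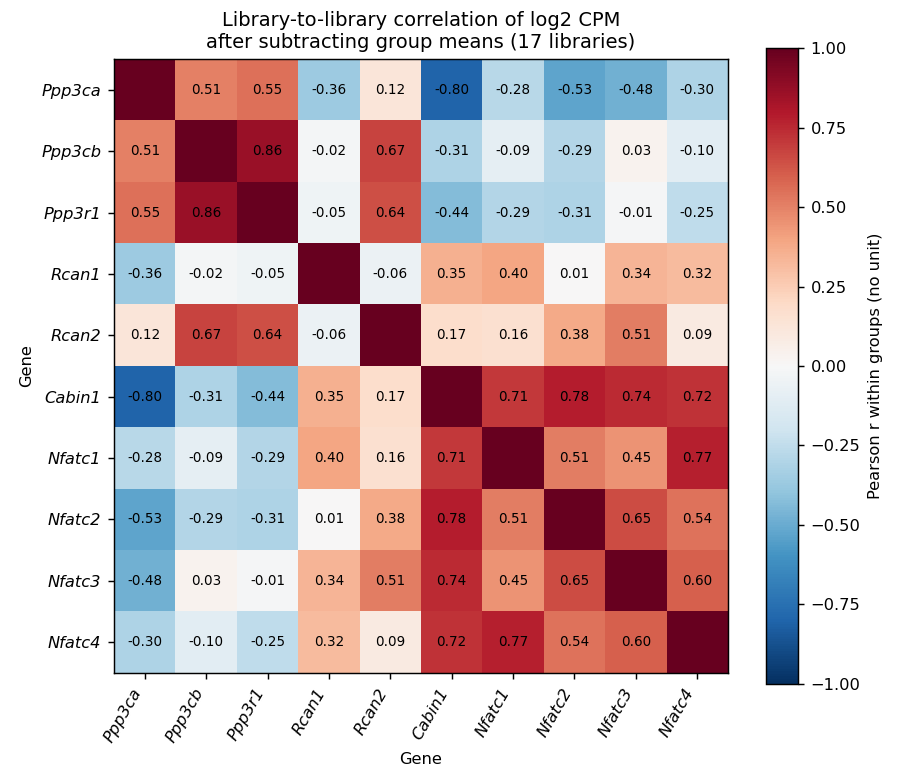
Pearson r of log2 CPM between each pair of genes over 17 libraries after subtracting group means, as a colour and a number. The subunit genes form one positive block, which Rcan2 joins through Ppp3cb (0.674) and Ppp3r1 (0.641), and Cabin1 with the NFAT genes another, with values down to −0.801 between them.

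The genes most like Rcan1 over all 17 libraries, surgery included, were Uck2 (Pearson r 0.973), Uba2 (0.966), Rasl11b (0.965), Ckap4 (0.965) and Meox1 (0.955). Uck2, a uridine and cytidine kinase, rose by 1.67 and Meox1, a homeobox gene known from activated fibroblasts, by 2.08 on the log2 scale after TAC. Among the genes most like Cabin1 were Sbf1 (0.990), Gpr107 (0.986), Strn4 (0.985) and Trafd1 (0.985). These 4 rose by 0.52 to 0.85. These values describe a shared pattern across hearts that includes the TAC and Sham difference.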

How the data were processed

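Per the study's methods, STAR 2.3.7 within Partek Flow mapped the reads to mm10. The authors deposited 1 CPM value per gene and library, each raised by a constant of 0.0001. The library kit marks strand; the counting tool and its strand setting are not given in the sources used here. Depth was estimated from the step between low values. Only 83.9 to 86.0% of low values came out as whole numbers of reads (tolerance 0.05), so read counts were not recovered and no count model was run.

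Genes with at least 0.5 CPM in 3 or more libraries (16218) entered limma 3.58.1 (R 4.3.3) as log2 CPM, constant included, as 1 mean per group with a variance trend and 13 residual degrees of freedom. A call was a Benjamini-Hochberg adjusted p of 0.05 or less over all genes tested. The surgery contrast was taken in each treatment and as the mean of both. For each of the 10 genes a two-sided exact permutation test over libraries was added (Python 3.11.15). The code was tested on simulated data. The study's own threshold was an unadjusted p of 0.05, used as an alternative. Labels do not state how libraries map to litters or cages, so p-values measure the spread between these libraries.

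The 10 genes, the pathway lists and the marker lists (atrial, cardiomyocyte, fibroblast, endothelial, smooth muscle and pericyte, macrophage, T cell, B cell, neutrophil, red blood cell, adipocyte and Schwann cell) were chosen with earlier results of these data known. From each pathway list up to 4 called genes with the smallest p and up to 2 tested genes that were not called with the highest level were named. The genes most like Rcan1 and like the gene of the 10 with the next smallest p were the 5 with the highest Pearson r over 17 libraries. Some genes that these rules name are not reported here. Atp2a2 was named after its value was seen. Lengths are the union of exons in GENCODE vM21, whose gene starts match the file for all 10 genes. Promoters are from RefSeq on GRCm38.p6.

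The alternatives tried were unweighted TMM factors (30% of log ratios and 5% of levels trimmed), median-of-ratios factors, totals that leave out the 16 mitochondrial-encoded genes, no filter, a filter of 1 CPM, constants of 0.1 and 1, the unadjusted threshold, a fit to the compared groups alone, a covariate for the run of code numbers, and leaving out each library in turn. The runs are groups of close numbers in the library codes, formed here, and the labels do not say that they mark batches. Leaving out the 3 libraries whose atrial markers summed to at least 1000 CPM was added after seeing the data.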

Additional observations from a re-analysis of the deposited data

Results flagged for a closer look

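Of 20 pairs of a gene and a group with 5 or 6 libraries, 1 held a library far from the others: Ppp3cb measured 91.2 CPM in TAC 29P replicate 18, against 73.9 to 79.1 CPM in the other 5. Chance gives about 1 such flag in 20. The same library was the highest of its group for Ppp3ca (91.9 CPM), Ppp3r1 (95.5 CPM) and Rcan2 (409.8 CPM), and it is 1 of the 3 with atrial transcripts (1751 CPM over 6 markers). The part of atrial tissue in these values was not tested. No difference of the surgery change between treatments passed the adjusted threshold for any of the 10 genes.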

How the results depend on the processing

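Over both treatments the surgery change of Rcan1, Cabin1 and Nfatc4 stayed higher and past the adjusted threshold in all 26 alternative fits. The number called in Veh mice was 5, and it was 0 with TMM or median-of-ratios factors, 2 with totals without mitochondrial-encoded genes, 3 with only the compared groups, 3 with the run as a covariate, 2 without the libraries with atrial transcripts (all genes that rose: 22.5%, then 3.86, 4.20, 9.77, 14.9, 19.2 and 13.4%), and 0 (without TAC Veh replicate 2) to 6 when 1 library was left out. In 29P mice it was 3, all higher, and it was also 3 with TMM factors, of which 1 was higher and 2 lower, 5 at an unadjusted p, 1 with the run as a covariate (all genes that rose: 31.4%, then 5.70, 43.5 and 4.19%) and 1 (without Sham 29P replicate 14) to 3 when 1 library was left out. Within Sham, 1 gene passed at an unadjusted p for 29P. The cause was not tested.

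Over both treatments the log2 fold change changed sign with TMM factors, totals without mitochondrial-encoded genes and median-of-ratios factors for Ppp3ca (−0.31, −0.13 and −0.30), Ppp3r1 (−0.34, −0.16 and −0.34) and Rcan2 (−0.22, −0.039 and −0.22), and with TMM and median-of-ratios factors for Nfatc2 (−0.011 and −0.0064). Ppp3cb was at 0.019 with the run as a covariate. Leaving out 1 library gave −0.069 to 0.13 for Ppp3ca, −0.053 to 0.041 for Ppp3cb and −0.032 to 0.073 for Ppp3r1. In the other 5 comparisons the sign also changed in some alternatives for genes that were called in neither fit. No paired analysis was possible because the groups share no replicate numbers. At 3 libraries in TAC Veh and Sham 29P, the 95% interval of Rcan1 within TAC spans −0.96 to 0.68 on the log2 scale.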
